A study of Homo sapiens with 12 samples.

Results

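The genes described here encode the inducible catalytic subunits of the proteasome (PSMB8, PSMB9 and PSMB10) and its activator caps (PSME1, PSME2, PSME3 and PSME4). These 7 genes were taken by symbol from the 25268 genes of the expression table, before any filter on their values, and all 7 passed the filter that 14676 genes passed. HEK293, an established human embryonic kidney cell line, was transiently transfected with 2 µg of a plasmid in which the strong CMV promoter drives His-HA-tagged RBMX, or with the empty vector. RBMX is an RNA-binding protein of the hnRNP family, and HEK293 cells carry their own RBMX gene, so the empty-vector control also expresses it. The labels call the control wild type, but it received transfection reagent and plasmid as well. There were 3 cultures per vector, each with 1 library of total and 1 of polysomal RNA, 12 libraries in 4 groups of 3. Polysomal RNA came from the heavy fractions of a sucrose gradient, which hold mRNAs under translation by several ribosomes. Total RNA was pooled from 20% of every gradient fraction, after removal of the nuclei, so that it represents cytoplasmic RNA.

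The proteasome is the barrel-shaped protease that degrades most ubiquitin-tagged proteins. Its catalytic sites sit in the 20S core, on the constitutive subunits PSMB6 (β1), PSMB7 (β2) and PSMB5 (β5). Interferons induce the immunosubunits PSMB9 (β1i, LMP2), PSMB10 (β2i, MECL-1) and PSMB8 (β5i, LMP7), which replace them in newly assembled cores and change which peptide bonds are cut, favouring peptides that bind MHC class I molecules. PSME1 (PA28α) and PSME2 (PA28β) form an activator ring, itself interferon-inducible, that opens the core. PSME3 (PA28γ) forms a ring of its own in the nucleus, and PSME4 (PA200) is a large single-chain nuclear activator. These last activators are not classical interferon targets.

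Several of these genes lie close together. PSMB8 (chromosome 6, 32840717 to 32844703, minus strand, GRCh38 with GENCODE v29) and PSMB9 (chromosome 6, 32844136 to 32859585, plus strand) are in the MHC class II region, beside the peptide transporter genes TAP1 and TAP2. The gap between PSMB8 and TAP1 was 505 bases and that between PSMB8 and TAP2 1936 bases. PSME1 (chromosome 14, 24136158 to 24138967, plus strand) and PSME2 (chromosome 14, 24143362 to 24147570, minus strand) were separated by 4394 bases. PSMB10 lies on chromosome 16 (67934502 to 67937087, minus strand), PSME3 on chromosome 17 (42824385 to 42843758, plus strand) and PSME4 on chromosome 2 (53864067 to 53970840, minus strand).

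Promoters were searched for the core of the interferon-stimulated response element (ISRE, GAAA, any 2 bases and GAAA again, on either strand), which is bound by STAT and IRF factors, in the 250 bases before to 50 bases after each RefSeq start site (GRCh38.p14). All 7 genes had an entry, and of the 3 constitutive counterparts PSMB5 alone. The core was found in PSMB8, PSMB10, PSME1 and PSME2, and in TAP1. PSMB8 held it in the first of its promoters listed and not in the second, and TAP1 in the second and not in the first. Of all 35116 promoters 3.57% hold it, and of 27305 genes 4.38% hold it in any promoter. The PSMB9, PSME3 and PSME4 windows held no match. The 30-base stretches around each core are shown because the genes share the same 10 letters, on one strand or the other. Each is written 5′ to 3′ along the gene's own strand, and capitals mark the ISRE core or its reverse complement.
PSMB8, chr6:32844032-32844061, minus strand: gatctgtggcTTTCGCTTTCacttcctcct
PSMB10, chr16:67936852-67936881, minus strand: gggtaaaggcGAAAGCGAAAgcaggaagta
PSME1, chr14:24136189-24136218, plus strand: gccctaccgcTTTCGCTTTCccttcgcggt
PSME2, chr14:24146619-24146648, minus strand: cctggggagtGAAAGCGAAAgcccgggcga
TAP1, chr6:32853813-32853842, minus strand: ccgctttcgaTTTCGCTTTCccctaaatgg

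In PSMB8, PSMB10, PSME1 and PSME2 the core began within 30 bases of the start site, at -4, -21, 5 and -28 (counted from 0 at the start site), and in the second TAP1 promoter at -128. The TAP1 stretch ended 350 bases before the PSMB9 start site at position 32854192, outside the PSMB9 window searched. TAP1 held a second, overlapping match beginning at -134. The exact form GAAAGCGAAA was chosen after the matches were seen, and 35 promoters of 34 genes hold it (0.0997% of promoters). The gamma-activated site (GAS, TTCNNNGAA, 7.66% of promoters) matched in PSMB8, PSME3, PSMB5 and TAP1. The GC box (GGGCGG, 45% of promoters) matched in PSMB8, PSMB9, PSME1, PSME2, PSME4 and TAP1. The TATA box (TATAAA, 11.5% of promoters) matched in none of the 7 genes. No GAS match shared bases with an ISRE match in these promoters, and a match describes the letters only.

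**Figure D1:**
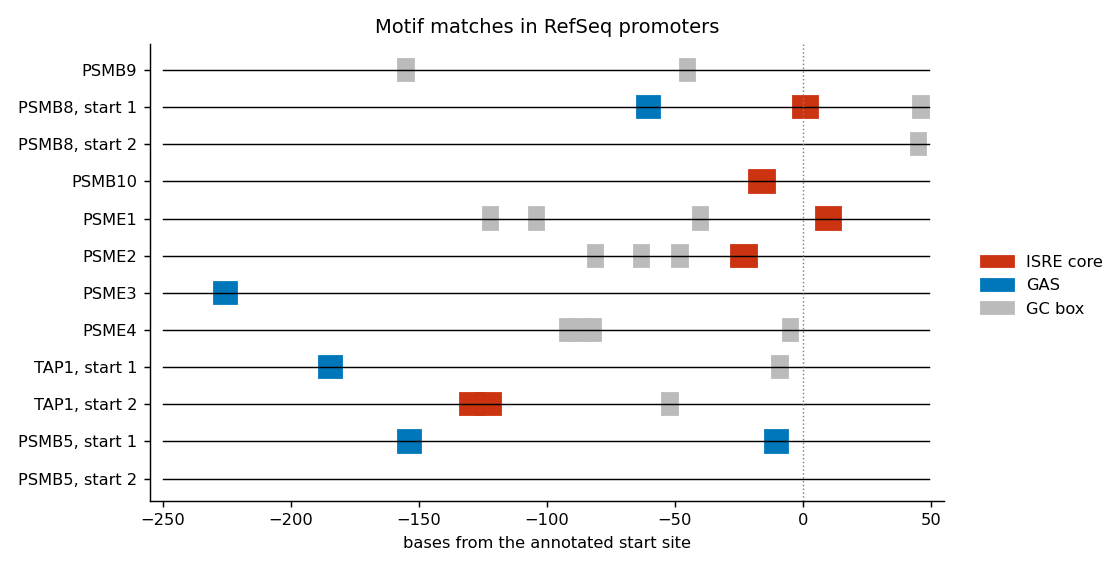
Motif matches along the RefSeq promoters of the 7 genes, TAP1 and PSMB5, with distance from the annotated start site in bases on the horizontal axis and 1 line per promoter. Boxes are matches on either strand, and the ISRE core (red) lies near the start site in PSMB8, PSMB10, PSME1 and PSME2.

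Values are FPKM (fragments counted per kilobase of a transcript's length, relative to library size), so levels of different genes can be set side by side. Replicates within a group correlated with Spearman coefficients of 0.924 to 0.953 across the genes tested, the depth of the libraries is unknown, and the FPKM of a library summed to between 817528 and 1903320. RBMX itself checked the labels. In total RNA its FPKM was 147, 145 and 108 in control replicates 1 to 3 and 1731, 2073 and 1460 in RBMX replicates 1 to 3. In polysomal RNA it was 146, 148 and 87.4 in control cells and 1167, 1328 and 1072 in RBMX cells. The overexpression passed the test in both fractions, with log2 fold changes of 3.71 (limma adjusted p = 0.00269) and, on polysomes, 3.25 (limma adjusted p = 0.0415). The polysomal call was lost without control replicate 1 or 2 or RBMX replicate 1 or 2 (limma adjusted p from 0.115 to 0.213). RBMX replicate 3 had the lowest RBMX level among the RBMX libraries of each fraction, at 10.9 times the control mean in total RNA, against 13 and 15.5 times in replicates 1 and 2. All 8 markers of HEK293 cells passed the filter. Of 12 blood and immune cell markers 11 stayed under 1 FPKM in every library, with CD14 reaching 1.99, and of 7 fibroblast and endothelial markers 6 did, with COL1A1 reaching 8.61.

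In control cells the 7 genes covered a wide range of levels. In control total RNA the mean FPKM was 1.27 ± 0.074 for PSMB8, 3.29 ± 0.69 for PSMB9, 7.23 ± 0.83 for PSMB10, 16.6 ± 3.48 for PSME4, 55.2 ± 1.02 for PSME2, 102 ± 9.05 for PSME3 and 105 ± 9.93 for PSME1 (SD, n = 3 each). Neighbours in this order did not overlap between libraries, except PSME3 and PSME1. The immunosubunits were therefore the least abundant of these mRNAs. Their constitutive counterparts were far higher, with control total means of 169 ± 9.59 for PSMB5, 268 ± 10.6 for PSMB6 and 304 ± 17 for PSMB7. In RBMX total RNA the mean of PSMB9 reached 25.2 ± 16.3, above PSMB10 at 10.2 ± 1.47 and PSME4 at 15.9 ± 0.40, but its libraries spanned those of both genes.

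**Figure D2:**
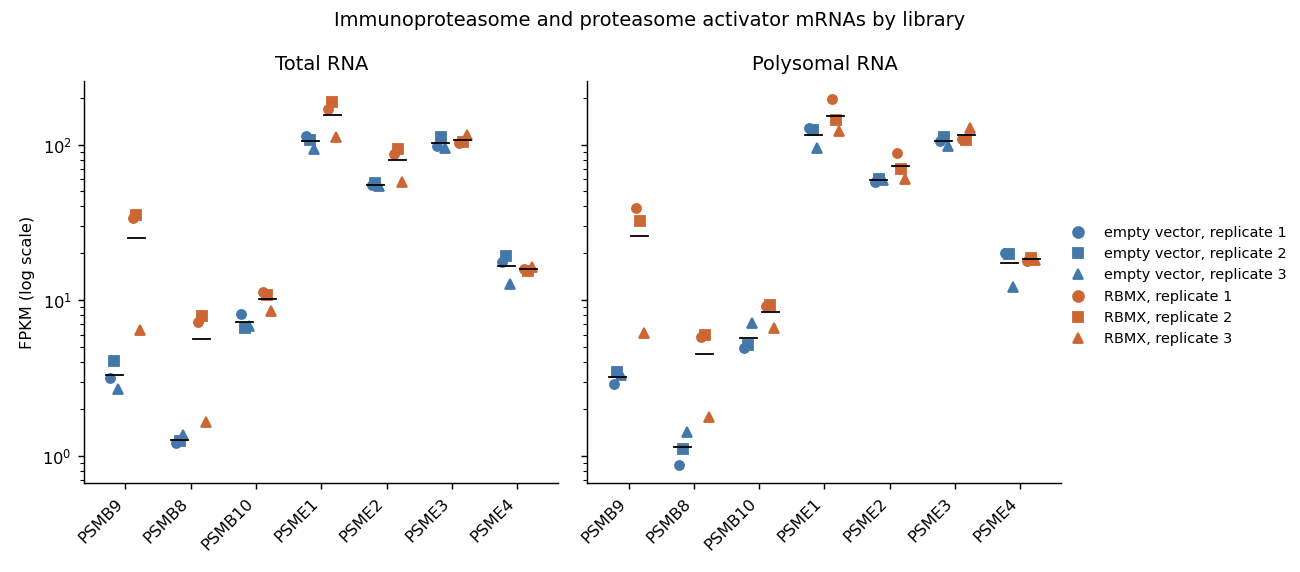
FPKM (log scale) of the 7 genes in each library, total RNA on the left and polysomal RNA on the right, with empty-vector libraries in blue, RBMX libraries in orange and a bar at each group mean. RBMX replicates 1 and 2 lie far above the control libraries for PSMB9 and PSMB8, and replicate 3 lies close to them.

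The comparison of RBMX with control within each fraction asked whether RBMX overexpression went with other mRNA levels, and the immunosubunits PSMB9 and PSMB8 had the largest differences of the 7 genes. In total RNA the FPKM of PSMB9 was 3.16, 4.04 and 2.68 in control cells and 33.6, 35.5 and 6.40 in RBMX cells (replicates 1 to 3, as in all such lists). RBMX replicates 1 and 2 held 10.2 and 10.8 times the control mean, and replicate 3 held 1.94 times. In polysomal RNA PSMB9 was at 2.90, 3.48 and 3.31 in control cells and at 39.1, 32.1 and 6.18 in RBMX cells. In each fraction every RBMX library exceeded every control library, for which an exact two-sided permutation test gives p = 0.1, the lowest value possible with 3 against 3. On the log2(FPKM + 1) scale, on which the changes of weakly expressed genes come out too small, the difference was 2.31 (SE 0.65) in total RNA and 2.33 (SE 0.67) in polysomal RNA. It did not pass the test in either fraction (limma, Benjamini-Hochberg adjusted p = 0.189 and 0.400). PSMB9 was the highest of the 7 genes in the order of all fold changes, at 1.04% from the top in total RNA and 0.893% in polysomal RNA.

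PSMB8, the chymotrypsin-like immunosubunit, lay at a lower level, and RBMX replicates 1 and 2 again held more of it than RBMX replicate 3. Its FPKM was 1.21, 1.24 and 1.35 in control total RNA and 7.27, 7.96 and 1.64 in RBMX total RNA. In polysomal RNA it was 0.876, 1.11 and 1.42 in control cells and 5.84, 5.94 and 1.76 in RBMX cells. The groups did not overlap in either fraction, and RBMX replicate 3 was again the RBMX library nearest to the controls, at 1.30 times the control mean in total RNA and 1.55 times in polysomal RNA. The difference was 1.36 (SE 0.48) on the log2(FPKM + 1) scale in total RNA and 1.26 (SE 0.39) in polysomal RNA, and did not pass (limma adjusted p = 0.236 and 0.400). PSMB8 shares 618 exonic bases, 20.6% of its own, with the antisense gene PSMB8-AS1 and 139 with PSMB9 on the other strand. The library kit named in the labels is not stated to keep strand, so reads from these stretches cannot be told apart.

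PSMB10, the trypsin-like immunosubunit on another chromosome, differed less. Its FPKM was 8.19, 6.66 and 6.86 in control total RNA and 11.2, 10.8 and 8.51 in RBMX total RNA, with no overlap. In polysomal RNA it was 4.93, 5.13 and 7.14 in control cells and 9.13, 9.30 and 6.59 in RBMX cells, where RBMX replicate 3 lay below control replicate 3. On the log2 scale PSMB10 differed by 0.44 (limma adjusted p = 0.193) and, on polysomes, by 0.47 (limma adjusted p = 0.420). The annotation places another coding gene, AC040162.1, over 644 of the 1853 exonic bases of PSMB10 on the same strand, so its counted fragments are uncertain.

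The constitutive subunits that PSMB9, PSMB8 and PSMB10 replace showed no such difference. PSMB6 differed by 0.053 on the log2 scale in total RNA (95% confidence interval -0.10 to 0.21) and -0.0063 in polysomal RNA (-0.30 to 0.29). For PSMB5 the values were 0.077 (-0.084 to 0.24) and 0.0035 (-0.26 to 0.27), and for PSMB7 0.11 (-0.076 to 0.29) and 0.028 (-0.30 to 0.35). These intervals leave out a rise of the size seen on average for PSMB9 or PSMB8, and none of the counterparts passed the test (limma adjusted p from 0.472 to 0.996).

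**Figure D3:**
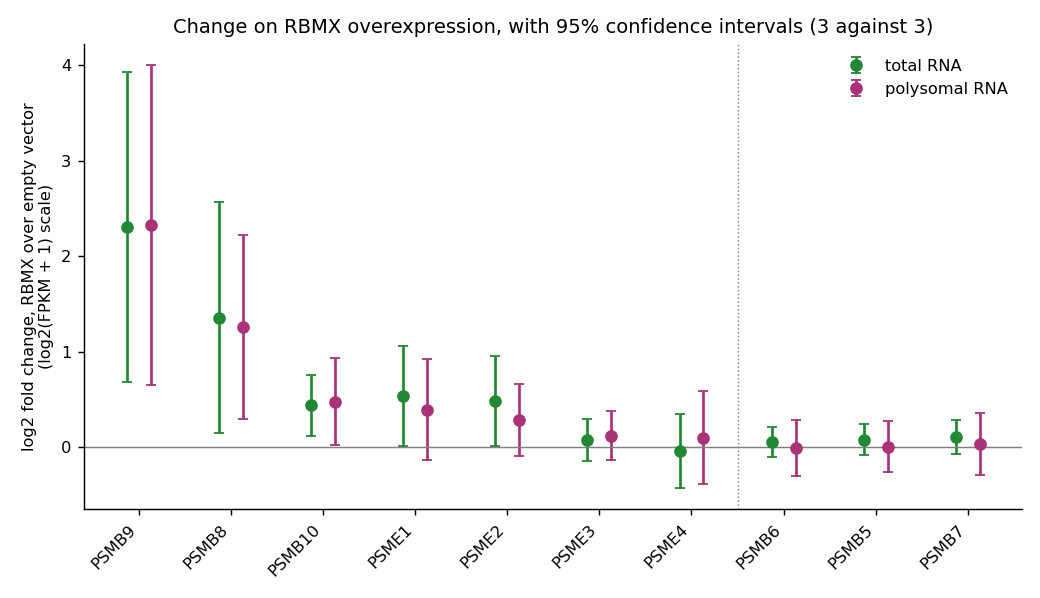
Log2 fold change of RBMX over empty vector on the log2(FPKM + 1) scale for the 7 genes and, right of the dotted line, the constitutive counterparts, with 95% confidence intervals from limma (3 against 3 libraries). The total (green) and polysomal (purple) values of PSMB9 and PSMB8 are the highest and have the widest intervals, and those of PSMB6, PSMB5 and PSMB7 lie near 0.

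The mRNA of each immunosubunit was also set against that of its counterpart within each library. PSMB9 made up 1.18%, 1.42% and 1.02% of the summed FPKM of PSMB9 and PSMB6 in control total RNA, and 10.9%, 11.4% and 2.2% in RBMX total RNA. On polysomes this share was 1.02%, 1.18% and 1.08% in control cells and 11.1%, 11.1% and 1.97% in RBMX cells. Even in the highest library most of the β1-type mRNA was thus the constitutive PSMB6. PSMB8 made up 0.711%, 0.690% and 0.842% of PSMB8 and PSMB5 in control total RNA and 4.02%, 4.23% and 0.900% in RBMX total RNA, and on polysomes 0.496%, 0.603% and 0.819% against 2.93%, 3.64% and 0.957%. PSMB10 made up 2.63%, 2.03% and 2.34% of PSMB10 and PSMB7 in control total RNA and 3.45%, 3.19% and 2.47% in RBMX total RNA, with overlapping groups. On polysomes the PSMB10 share was 1.57%, 1.50% and 2.22% against 2.65%, 3.18% and 1.78%.

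The log2 ratio of PSMB9 to PSMB6 was higher in RBMX cells by 2.55 in total and 2.63 in polysomal RNA, with no overlap between the groups (two-sided exact permutation test, p = 0.1 in each, the smallest possible). That of PSMB8 to PSMB5 was higher by 1.77 and 1.82 (p = 0.1 in each by the same exact test). That of PSMB10 to PSMB7 was higher by 0.38 and 0.52 with overlapping groups (exact permutation p = 0.2 in each). With 3 against 3 libraries this exact test cannot pass a threshold of 0.05. The shares are of mRNA and say nothing of the subunits assembled into proteasomes.

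**Figure D4:**
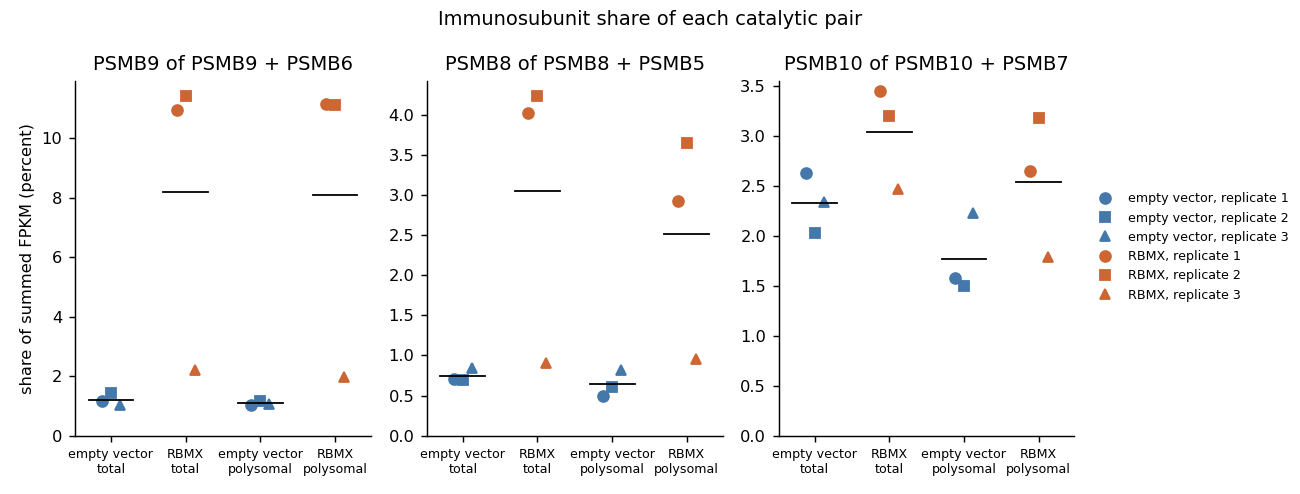
Share of the immunosubunit in the summed FPKM of each catalytic pair (percent, each panel with its own scale from 0), by vector and fraction, with 1 symbol per library and a bar at the mean. PSMB9 reaches 11.4% in RBMX replicate 2 and 2.2% in RBMX replicate 3 of total RNA, and its control libraries lie between 1.02% and 1.42%.

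The subunits of the interferon-inducible activator, PSME1 and PSME2, were abundant in control cells and differed by smaller factors. PSME1 had an FPKM of 113, 107 and 93.8 in control total RNA and of 170, 187 and 111 in RBMX total RNA. RBMX replicate 3 thus lay just below control replicate 1, and the groups overlapped. On polysomes PSME1 was at 127, 124 and 95 in control cells and at 195, 144 and 122 in RBMX cells. PSME1 differed by 0.54 on the log2 scale (limma adjusted p = 0.257), and on polysomes by 0.39 (limma adjusted p = 0.486).

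PSME2 had the smallest spread relative to its mean among the control libraries, at 55.3, 56.2 and 54.2 FPKM in total RNA. In RBMX total RNA it was at 86.5, 94.2 and 57.6, all above the controls (exact permutation p = 0.1, two-sided). On polysomes PSME2 was at 57.1, 60.2 and 59.0 in control cells and at 88.8, 69.3 and 59.8 in RBMX cells, where replicate 3 lay between control libraries. The log2 difference was 0.49 (limma adjusted p = 0.254), and on polysomes 0.28 (limma adjusted p = 0.483). PSME1 and PSME2 kept a similar ratio, which differed by 0.050 on the log2 scale in total RNA and 0.11 in polysomal RNA between RBMX and control cells (two-sided exact permutation p = 0.7 and 0.8). The level of PSME2 is uncertain because 4 processed pseudogenes match its transcript with 93.2% to 96.6% identity over 327 to 720 bases, and because 216 of its exonic bases overlap RNF31 on the other strand.

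For the nuclear activators PSME3 and PSME4 the differences lay nearer to 0 and the groups overlapped in both fractions. In total RNA their 95% confidence intervals leave out the mean differences of PSME1 and PSME2. On polysomes the PSME4 interval includes both of these differences and the PSME3 interval only that of PSME2. PSME3 was at 97.5, 112 and 95.6 FPKM in control total RNA and at 102, 103 and 115 in RBMX total RNA, and on polysomes at 105, 112 and 98.3 against 109, 107 and 127. Its log2 difference was 0.072 in total RNA (95% confidence interval -0.15 to 0.29, limma adjusted p = 0.685) and 0.12 in polysomal RNA (-0.14 to 0.37, limma adjusted p = 0.631). For PSME3 the highest RBMX library was replicate 3 in both fractions, the one that was lowest for the immunosubunits and for PSME1 and PSME2. PSME4 was at 17.7, 19.4 and 12.7 FPKM in control total RNA and at 15.8, 15.5 and 16.3 in RBMX total RNA, and on polysomes at 20.0, 19.9 and 12.2 against 17.9, 18.7 and 18.2. Its widest spread was among the controls, where replicate 3 was low in both fractions. The log2 difference of PSME4 was -0.040 in total RNA (-0.43 to 0.35, limma adjusted p = 0.910) and 0.10 in polysomal RNA (-0.39 to 0.59, limma adjusted p = 0.838). PSME3 shares 300 exonic bases (5.82%) with BECN1 on the other strand.

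Counted together, 0 of the 7 genes passed in total RNA, where 24 of 14676 genes (0.164%) did, and 0 passed in polysomal RNA, where 7 genes (0.0477%) did (limma, Benjamini-Hochberg adjusted p up to 0.05). At an unadjusted limma p under 0.05, 5 of the 7 were higher in RBMX total RNA (PSMB8, PSMB9, PSMB10, PSME1 and PSME2), against 7.93% of all genes tested, and 3 in polysomal RNA (the immunosubunits), against 5.16%. Every RBMX library lay above every control library for 4 of the 7 in total RNA (PSMB8, PSMB9, PSMB10 and PSME2) and for 2 in polysomal RNA (PSMB8 and PSMB9). The same held for 11.9% and 10.0% of all genes tested. The 7 genes had a median log2 difference of 0.49 in total and 0.39 in polysomal RNA, and that of all genes tested was 0 in both.

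These calls depended on RBMX replicate 3, the RBMX library nearest to the controls for PSMB9 and PSMB8. Leaving it out follows these same values, so a fit without it is no independent support for a difference. Leaving out any other single replicate called none of the 7 genes in either fraction. Without RBMX replicate 3 PSMB8 and PSMB9 were called higher in both fractions and PSME2 in total RNA, 3 and 2 of the 7 genes. Of all genes 1.08% were then called higher in total RNA and 0.804% in polysomal RNA. For PSMB9 the log2 fold change was then 3.06 (SE 0.15, limma adjusted p = 0.00425), and 3.11 on polysomes (SE 0.13, limma adjusted p = 0.00370). For PSMB8 the values were 1.92 (SE 0.068, limma adjusted p = 0.00160) and 1.70 (SE 0.13, limma adjusted p = 0.0184), and for PSME2 in total RNA 0.70 (SE 0.064, limma adjusted p = 0.0276). PSME1 had 0.76 (limma adjusted p = 0.0840) and PSMB10 0.55 (limma adjusted p = 0.122) in total RNA. PSME3 and PSME4 stayed near 0, at 0.017 and -0.059. Control replicate 3 also stood apart from the other controls. Without both replicates numbered 3, PSMB8, PSMB9, PSME1 and PSME2 passed in total RNA and PSMB8, PSMB9 and PSMB10 in polysomal RNA. In either direction 306 and 348 genes were then called, 2.09% and 2.37% of all genes tested.

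Other interferon-inducible genes moved with the immunosubunits in the same libraries. Of 20 interferon-stimulated genes 20 were higher in RBMX cells in each fraction, with a median log2 difference of 2.60 in total and 2.57 in polysomal RNA. The groups did not overlap for any of the 20, against 11.9% and 10.0% of all genes with RBMX higher. In the adjusted limma test 0 passed. At an unadjusted p under 0.05 20 were higher in each fraction, against 7.93% and 5.16% of all genes. On the log2(FPKM + 1) scale the difference was largest for OAS2, an enzyme that makes the activator of RNase L, at 3.64 (limma adjusted p = 0.176) and 3.76 (limma adjusted p = 0.400), and smallest for the antiviral GTPase MX1, at 1.30 and 1.29. As a ratio of mean FPKM the largest was that of the low-abundance XAF1, 34.1 and 30.3 times against 18.7 and 20.7 times for OAS2, and the smallest in total RNA that of HERC5, 2.79 times against 3.04 for MX1. The median fold of this list over the control mean was 8.76, 10.0 and 2.34 in RBMX total replicates 1 to 3 and 8.93, 7.75 and 2.48 in polysomal RNA, and 1.14, 1.22 and 0.61 in the control total libraries. RBMX replicate 3 was thus the lowest RBMX library for this list too, and control replicate 3 the lowest control. Without RBMX replicate 3, 14 of the 20 were called higher in total and 11 in polysomal RNA, against 1.08% and 0.804% of all genes. Since that replicate was the lowest for this list, these calls are no independent support for a difference. The same holds for the interferon signalling and class I genes called without it below. The part of the 20 interferon-stimulated genes in the differences of the 7 proteasome genes was not tested. Nor can more cells that express an mRNA and more mRNA per cell be told apart in these bulk samples.

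Among 13 tested genes of interferon signalling and of immunosubunit regulation, 9 were higher in total RNA and 10 in polysomal RNA, with medians of 0.27 and 0.23. Of the 13, 0 passed, and 6 and 5 were higher at an unadjusted limma p under 0.05, against 7.93% and 5.16% of all genes. The difference was largest for IFNB1, the gene of interferon β. Its FPKM was 1.22, 0.867 and 0.813 in control total RNA and 19.2, 22.1 and 3.19 in RBMX total RNA, and 11.3, 8.80 and 2.14 in RBMX polysomal RNA. Its log2 difference was 2.67 (limma adjusted p = 0.176), on polysomes 1.97 (limma adjusted p = 0.400), and IFNB1 was called in both fractions without RBMX replicate 3, as were IRF9 and STAT2 in total RNA and IRF1 in polysomal RNA. IFNG, which encodes interferon γ, was listed at 0 in all 12 libraries. IFNAR1, a subunit of the receptor for interferon β, had the lowest value of the list in total RNA, and IFNGR2, a subunit of the receptor for interferon γ, in polysomal RNA.

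The 15 listed genes of class I peptide transport and loading, a pathway for the peptides that proteasomes make, include the regulator NLRC5. All 15 were higher in both fractions, with medians of 1.03 and 0.97. Of these 12 and 9 were higher at an unadjusted limma p under 0.05, against 7.93% and 5.16% of all genes, and 0 passed after adjustment. On the log2(FPKM + 1) scale TAP1, the neighbour of PSMB9, had the largest difference, from 33.5, 31.2 and 21.9 FPKM in control total RNA to 122, 124 and 46.3 in RBMX total RNA, a log2 difference of 1.61 (limma adjusted p = 0.181). CANX, a chaperone of the endoplasmic reticulum, had the smallest, at 0.19 and 0.24. Without RBMX replicate 3, ERAP2, HLA-E, HLA-F, NLRC5, TAP1 and TAPBP were called higher in total RNA, and HLA-E, HLA-F and NLRC5 in polysomal RNA. NLRC5, the transcriptional activator of class I genes, was at 2.05, 2.17 and 1.98 FPKM in control total RNA and at 10.6, 10.8 and 3.91 in RBMX total RNA. As a ratio of mean FPKM it had the larger fold, 4.08 against 3.37 for TAP1 in total and 4.42 against 3.40 in polysomal RNA.

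None of the other proteasome genes tested passed in either fraction. Of the 11 other 20S core subunits 10 were higher in total RNA and 6 in polysomal RNA, with medians of 0.099 and 0.024. Their highest value was 0.28 for PSMA5 in total RNA (limma adjusted p = 0.182) and 0.10 for PSMB3 in polysomal RNA, and their lowest was that of PSMA7, at -0.032 and -0.083. All RBMX libraries exceeded all controls for 4 of the 11 in total and 0 in polysomal RNA. The shares of all genes were 11.9% and 10.0%. At an unadjusted limma p under 0.05, 2 and 0 were higher, against 7.93% and 5.16%. In RBMX total replicates 1 to 3 PSMA5 held 1.27, 1.29 and 1.11 times the control mean, and PSMA6 1.25, 1.34 and 1.04 times. Of 19 subunits of the 19S regulatory particle, the cap that binds ubiquitin chains and unfolds substrates, 18 and 17 were higher, with medians of 0.22 and 0.21. All RBMX libraries exceeded all controls for 5 and 1 of the 19, against 11.9% and 10.0% of all genes. At an unadjusted limma p under 0.05, 0 were higher in either fraction. The 19S median fold over the control mean was 1.20, 1.13 and 1.13 in RBMX total replicates 1 to 3 and 1.08, 1.15 and 0.755 in control replicates 1 to 3, so that control replicate 3 was the lowest of the 6 libraries. The highest 19S values were 0.37 for the ATPase PSMC2 in total RNA (limma adjusted p = 0.358) and 0.43 for the scaffold subunit PSMD2 in polysomal RNA (limma adjusted p = 0.620), the latter above the polysomal values of PSME1 and PSME2. SHFM1, the smallest 19S subunit, had the lowest value, -0.10 in total and -0.50 in polysomal RNA (limma adjusted p = 0.628 and 0.430). Among 14 assembly factors and modulators 9 were higher in total RNA and 3 in polysomal RNA, with medians of 0.055 and -0.051. Their highest values were 0.11 for FAM192A in total RNA and 0.14 for KIAA0368 in polysomal RNA. POMP, the maturation factor needed to build new 20S cores, had the lowest value of that list, -0.082 and -0.27 (limma adjusted p = 0.666 and 0.531). The thymic subunit PSMB11 and the testis subunit PSMA8 were at or under 0.062 FPKM in every library and were not tested.

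The 12 libraries ordered these genes in distinct ways, described by Pearson correlations of log2(FPKM + 1) that share the same libraries. PSMB9 correlated with PSMB8 at 0.98, PSME2 at 0.93, PSME1 at 0.89 and PSMB10 at 0.81, and with PSME3 and PSME4 at 0.055 and 0.064. The tested genes most like PSMB9 were XAF1 (0.997), ISG20 and C19orf66, and those most like PSMB8 were HSH2D (0.992), APOL3 and UBA7. PSMB10 was nearest to MT2A (0.966), SLC25A28 and FBXL12. PSME1 was nearest to CYP2J2 (0.972), ERAP1 and IFI16, and PSME2 to RARRES3 (0.973), TNFSF10 and CXCL10. PSME3 was nearest to EIF3K (0.906), CCND1 and GRB2, and PSME4 to PHKA1 (0.997), SCRN1 and TP53BP2.

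Whether RBMX went with another effect on polysomes than in total RNA was tested over all 12 libraries, since RBMX is studied here as a regulator of mRNAs after transcription. None of the 7 genes differed between fractions in this test (0 of 7 called, against 3 of all genes or 0.0204%; limma adjusted p = 1.00 for each, with 0 of 7 at an unadjusted p under 0.05). The difference of the effects ran from -0.20 for PSME2 (95% confidence interval -0.77 to 0.37) to 0.14 for PSME4 (-0.45 to 0.73) on the log2 scale. For PSMB9 it was 0.022 (-2.21 to 2.25) and for PSMB8 -0.098 (-1.58 to 1.38). PSMB10, PSME1 and PSME3 had 0.034, -0.15 and 0.045. This fit does not pair the fractions by culture, so the wide intervals of PSMB9 and PSMB8 also hold the spread between cultures. Paired by replicate number, the log2 ratio of polysomal to total FPKM of PSMB9 averaged -0.012 ± 0.28 in control and 0.0080 ± 0.19 in RBMX cells. For PSMB8 it averaged -0.19 ± 0.27 and -0.21 ± 0.28 (SD, n = 3 each).

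Polysomal and total RNA were also compared within each vector. In control cells 0 of the 7 genes passed, against 0.0818% of all genes, and 0 had an unadjusted limma p under 0.05, against 8.04%. In RBMX cells 0 passed, against 1.34%. There 1 of the 7, PSME4, was higher on polysomes at an unadjusted limma p under 0.05. The same held for 10.0% of all genes, and 23.0% had such a p in either direction. With total and polysomal RNA paired by culture, the genes called in RBMX cells fell from 196 to 4 (0.0273%), and they numbered 21 to 23 with a replicate left out. Taking the libraries of one replicate number as one culture, the log2 ratio of polysomal to total FPKM of PSMB10 was -0.73, -0.38 and 0.058 in control cultures 1 to 3 and -0.30, -0.22 and -0.37 in RBMX cultures 1 to 3. PSMB10 was thus lower on polysomes in 5 of 6 cultures, with a mean of -0.35 ± 0.40 in control and -0.30 ± 0.074 in RBMX cells (SD, n = 3 each). The main limma test of PSMB10 (adjusted p = 0.684 and 0.372) did not pair the cultures, so it does not measure the spread of these ratios. PSMB8 lay at -0.47, -0.17 and 0.075 in control cultures and at -0.32, -0.42 and 0.10 in RBMX cultures, and PSMB9 at -0.12, -0.22 and 0.31 and at 0.22, -0.14 and -0.052. In both vectors PSMB8 and PSMB9 took both signs.

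Among the activators PSME2 had ratios of 0.046, 0.098 and 0.12 in control cultures and 0.039, -0.44 and 0.052 in RBMX cultures, and PSME1 0.17, 0.21 and 0.018 against 0.20, -0.38 and 0.13. RBMX culture 2 was the only culture below 0 for PSME1 and PSME2. The same held for the counterparts PSMB5, PSMB6 and PSMB7 (-0.20, -0.10 and -0.21 in that culture), so this was not particular to the activators. In RBMX cultures PSME4 was above 0 in all 3, at 0.18, 0.27 and 0.16. It had the smallest p among the 7 genes in the unpaired fit of RBMX cells (log2 difference 0.19, SE 0.043, limma adjusted p = 0.111). In control cultures PSME4 was at 0.18, 0.040 and -0.055. PSME3 was at 0.11, -0.0019 and 0.040 in control and at 0.087, 0.053 and 0.15 in RBMX cultures (limma adjusted p = 0.976 and 0.572 in the unpaired fits).

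**Figure D5:**
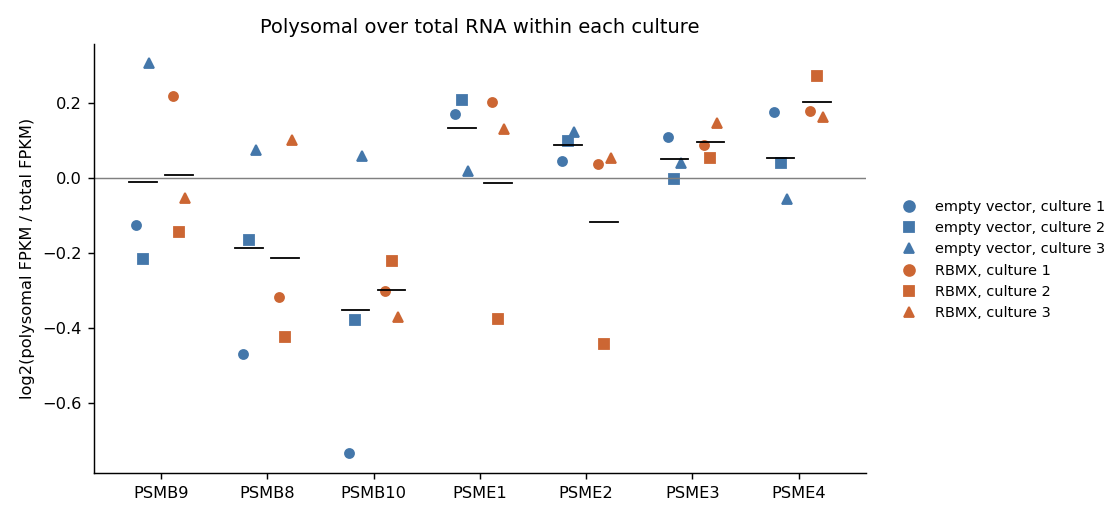
Log2 ratio of polysomal to total FPKM of the 7 genes within each culture, with empty-vector cultures in blue, RBMX cultures in orange and a bar at the mean of 3. Most values lie between -0.5 and 0.3, PSMB10 is below 0 in 5 of 6 cultures, and PSME4 is above 0 in the 3 RBMX cultures.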

How the data were processed

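The authors deposited FPKM values for 25268 genes in 12 libraries. The submitters' processing notes name CASAVA 1.8, TopHat2 2.0.13, Cufflinks 2.2.1, Cuffnorm and hg19. The annotation and any further scaling are not given in the sources used here, the counts that the paper's methods describe were not used, and 0 columns were left unmatched. FPKM hold no counts, and low values shared no common step (11.5% to 23.5% of low genes), so depth is unknown and no count model or limit of detection was applied. Coordinates are GENCODE v29 on GRCh38 and promoters RefSeq, and neither is the build of the FPKM.

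The 14676 genes that averaged 0.5 FPKM or more were compared on log2(FPKM + 1) with limma 3.58.1 in R 4.3.3 (lmFit, eBayes with trend), with Benjamini-Hochberg adjustment over all of them and a threshold of 0.05. Each fraction or vector was fitted on its own 6 libraries, and the difference between fractions on all 12. Single values had exact permutation tests. Python 3.11.15 and BLAST 2.17.0 served for other steps, and the fits were tested on simulated data. The 7 genes and all lists were chosen with earlier results of these data known. Named are the 7 genes, RBMX, the counterparts, the 3 genes most like each of the 7, and of each list the genes called and those with the largest rise and fall on the log2(FPKM + 1) scale. NLRC5 values, the XAF1 and HERC5 ratios and the exact ISRE form were chosen after values were seen. Protein sequences were not used here.

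Total and polysomal RNA of one culture were taken from the same gradient, according to the paper's methods, which pairs them, although the labels' treatment protocol speaks of separate dishes for each kind of RNA, so that the pairing within cultures is not certain. Across genes, which are not independent, the correlation of their deviations was 0.0758, 0.0991 and 0.311 in control and 0.00177, 0.0219 and 0.0893 in RBMX cultures 1 to 3. Alternative settings comprised a replicate block, each replicate left out, 1 fit of all 12 libraries, a filter at 0.1 or 1 FPKM or none, a pseudocount of 0.1, no trend in eBayes, and quantile normalization or median-ratio rescaling. Leaving out both replicates numbered 3 was added after seeing the data.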

Additional observations from a re-analysis of the deposited data

How the results depend on the processing

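The differences of PSMB8, PSMB9, PSMB10, PSME1 and PSME2 between RBMX and control cells kept their direction in both fractions under every alternative. With a replicate left out, 0 to 3 of the 7 genes were called in total RNA and 0 to 2 in polysomal RNA, and without both replicates numbered 3, an alternative added after seeing the data, 4 and 3. Genes called in total RNA numbered 62 with a minimum mean FPKM of 0.1, 73 with no filter, 60 with all 12 libraries in one fit, 19 to 178 with a replicate left out and 306 without both. In polysomal RNA they numbered 14 with a minimum of 0.1, 22 with all 12 libraries, 9 to 126 and 348. For the difference between fractions there were 5 with no filter, 4 to 7 with a replicate left out and 14 without both. For polysomal against total RNA there were 41 with all 12 libraries and 13 to 199 with a replicate left out in control cells, and 53 with no filter, 70 with quantile normalization, 21 with all 12 libraries and 21 to 23 with a replicate left out in RBMX cells. The causes were not tested.

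With a replicate block 13 genes were called in total RNA and 3 in polysomal RNA. Control and RBMX samples share only a replicate number (correlations of deviations from -0.0659 to 0.0285, with 1 and 2 of 6 samples nearest to their own number). With the pairing of total and polysomal RNA by culture, counts were 5 for the difference, 6 in control and 4 in RBMX cells. The block called 0 of the 7 genes in any comparison.

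Near 0, directions turned. In total RNA PSME3 had -0.020 with quantile normalization and ran from -0.025 without both replicates numbered 3 to 0.14 with others left out, and PSME4 from -0.23 without both to 0.014 and 0.075 without control replicate 1 or 2. In polysomal RNA PSME4 ran from -0.12 without control replicate 3, and -0.12 without both, to 0.21, and PSME3 from -0.0094 without both to 0.16. The difference between fractions turned for RBMX with quantile normalization (0.28), for PSMB9 without control replicate 1 (-0.020) or 2 (-0.058) or RBMX replicate 1 (-0.080), for PSMB10 without control replicate 1 (-0.13) and for PSME1 without RBMX replicate 2 (0.034, against -0.27 without both replicates numbered 3). With replicates left out PSMB9 reached 0.17 and PSMB10 0.24. Polysomal against total RNA turned in control cells for PSMB9 with quantile normalization (0.032) and without control replicate 1 (0.029) or 2 (0.067, against -0.13 without replicate 3), for PSME4 without control replicate 1 (-0.0062, against 0.10 without replicate 3) and for RBMX without control replicate 3 (0.0068, against -0.16 without replicate 2). In RBMX cells it turned with quantile normalization for PSME1 (0.13) and RBMX (0.24), without RBMX replicate 2 for PSME1 (0.17) and PSME2 (0.045, against -0.20 without replicate 3), and without RBMX replicate 1 for PSMB9 (-0.092, against 0.084 without replicate 2). The log2 ratio of PSME1 to PSME2 turned without control replicate 3 (-0.014 and -0.029, against 0.11 and 0.21 without control replicate 1). The RBMX call in polysomal RNA was lost in 6 of 16 alternatives. With no counts behind the FPKM, the precision of low genes such as PSMB8 is known only from the spread between replicates.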

Other observations

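Of the 34 genes whose promoter holds the exact form GAAAGCGAAA, a list chosen after the matches were seen and including PSMB8, PSMB10, PSME1, PSME2 and TAP1, 23 were tested. In total RNA 16 were higher in RBMX cells, with a median log2 difference of 0.20, and in polysomal RNA 17, with a median of 0.25, where all genes tested had a median of 0. The groups did not overlap, with RBMX higher, for 9 and 11 of the 23, against 11.9% and 10.0% of all genes tested. PSMB8, PSMB10 and PSME2 are among these in total RNA, so the counts are no separate result about the motif. In the adjusted limma test 0 passed, and 10 and 8 were higher at an unadjusted p under 0.05, against 7.93% and 5.16% of all genes. PSMB8, PSMB10, PSME1 and PSME2 are among the 10, and PSMB8 and PSMB10 among the 8. These counts too are thus no separate result about the motif. On the log2(FPKM + 1) scale TAP1 had the highest value and CYP4V2 the lowest in each fraction. As a ratio of mean FPKM PSMB8 lay above TAP1, at 4.44 against 3.37 in total and 3.98 against 3.40 in polysomal RNA. Without RBMX replicate 3, PARP14, PSMB8, PSME2 and TAP1 were called higher in total RNA and PARP14 and PSMB8 in polysomal RNA. As above, this fit is no independent support for a difference.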
